A study of Mus musculus with 21 samples.

Results

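Unmethylated, CpG-rich stretches that were called at a length under 1000 bp are described here in mouse sperm. They were found in 1 bisulfite library of DNA recovered in nucleosomes from C57BL/6 sperm, the only one of the 21 samples of the series analysed here. The labels name no treatment, allele or age for these sperm, and pooling of animals is not described. Motile sperm were collected by a swim-up step and cut to single nucleosomes with micrococcal nuclease, which removes the linker DNA. The table has counts at CpGs alone, so no RNA or protein marker of sperm or of other cells could be looked at. Methylation as a marker of other cells was not examined. There were 1613 such regions on the 19 autosomes, 17.4% of the 9272 CpG-rich regions of low methylation. A region was a run of CpGs with at least 5 reads each and a level under 50% when pooled over the CpG and its neighbours, 3 CpGs in all, with gaps of at most 500 bp and 30 or more such CpGs. The members were thus chosen by read number and methylation, and their values for both are given as a description. With 1 library there was no replicate and no test.

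CpG islands are stretches of vertebrate DNA in which CpG is frequent and mostly unmethylated, and they lie at the starts of many genes, above all of genes used in every cell. Elsewhere most CpGs are methylated, and a methylated C is lost over evolution by deamination to T. In sperm most histones are replaced by protamines, and nucleosomes that remain are known to be frequent at CpG islands. Coverage below is the mean number of reads per listed CpG without CpGs above 19 reads, and level is the share of reads that were methylated.

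Sequences of 7 gene starts inside these regions show the DNA around such starts and where the reads fell. They are RefSeq promoter windows of build GRCm38.p6, written 5′ to 3′ in the direction of the gene, in lower case with each CG in capitals, and the gene starts after the first 250 bases. The deposited positions are on mm9. The windows were therefore located in the table by the spacing of their CGs and not by coordinates. Coordinates of regions below are those of the table, which does not say whether it counts from 0 or 1. Dennd1b and Pdf lie in the regions with the lowest coverage. The others were chosen after their values were seen, as starts of a gene list with high coverage (Mrps15, Psmd8), low coverage (Mrpl17) or a high level (Mael, Tdrd1). At Mrps15, Tdrd1 and Psmd8 the called region began 33, 31 and 144 bp upstream of the start, so these windows also show DNA outside it.
Dennd1b, GRCm38.p6 chr1:138963459-138963758, plus strand: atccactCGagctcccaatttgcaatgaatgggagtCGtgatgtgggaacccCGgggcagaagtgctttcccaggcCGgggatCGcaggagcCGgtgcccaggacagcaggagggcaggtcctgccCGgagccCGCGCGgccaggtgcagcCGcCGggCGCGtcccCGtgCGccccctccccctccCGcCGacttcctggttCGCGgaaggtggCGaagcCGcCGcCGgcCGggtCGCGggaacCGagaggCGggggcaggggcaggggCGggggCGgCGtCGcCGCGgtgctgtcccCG
Pdf, GRCm38.p6 chr8:107048565-107048864, minus strand: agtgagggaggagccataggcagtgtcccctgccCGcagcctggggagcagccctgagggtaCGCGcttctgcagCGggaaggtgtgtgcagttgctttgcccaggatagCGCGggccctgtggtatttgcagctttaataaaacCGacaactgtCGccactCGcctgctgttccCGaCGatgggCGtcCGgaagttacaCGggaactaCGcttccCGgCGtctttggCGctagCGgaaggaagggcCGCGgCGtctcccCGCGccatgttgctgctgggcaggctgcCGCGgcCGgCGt
Mrps15, GRCm38.p6 chr4:126046678-126046977, plus strand: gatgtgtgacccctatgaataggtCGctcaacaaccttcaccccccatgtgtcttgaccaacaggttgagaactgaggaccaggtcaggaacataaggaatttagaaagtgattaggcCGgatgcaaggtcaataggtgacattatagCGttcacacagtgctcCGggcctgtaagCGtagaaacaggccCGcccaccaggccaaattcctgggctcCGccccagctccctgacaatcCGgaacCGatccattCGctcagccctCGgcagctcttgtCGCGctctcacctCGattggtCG
Mrpl17, GRCm38.p6 chr7:105811038-105811337, minus strand: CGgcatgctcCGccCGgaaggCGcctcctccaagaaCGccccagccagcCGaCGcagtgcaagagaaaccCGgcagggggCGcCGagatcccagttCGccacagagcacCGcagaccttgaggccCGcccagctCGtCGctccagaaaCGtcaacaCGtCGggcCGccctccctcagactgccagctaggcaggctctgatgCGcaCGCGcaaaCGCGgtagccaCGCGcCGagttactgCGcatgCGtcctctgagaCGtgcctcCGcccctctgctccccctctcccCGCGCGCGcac
Psmd8, GRCm38.p6 chr7:29180624-29180923, minus strand: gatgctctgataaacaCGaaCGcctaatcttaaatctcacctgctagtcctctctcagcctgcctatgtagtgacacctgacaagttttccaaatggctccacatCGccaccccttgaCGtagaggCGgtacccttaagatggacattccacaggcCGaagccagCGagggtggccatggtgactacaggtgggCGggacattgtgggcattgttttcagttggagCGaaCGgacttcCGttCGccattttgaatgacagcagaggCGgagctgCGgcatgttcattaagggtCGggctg
Mael, GRCm38.p6 chr1:166238695-166238994, minus strand: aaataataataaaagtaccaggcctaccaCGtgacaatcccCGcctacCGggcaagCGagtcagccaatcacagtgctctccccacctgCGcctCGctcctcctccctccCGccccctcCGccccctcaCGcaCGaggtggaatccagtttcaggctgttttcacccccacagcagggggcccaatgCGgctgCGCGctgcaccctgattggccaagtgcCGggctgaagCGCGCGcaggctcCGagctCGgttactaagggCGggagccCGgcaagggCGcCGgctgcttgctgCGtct
Tdrd1, GRCm38.p6 chr19:56825959-56826258, plus strand: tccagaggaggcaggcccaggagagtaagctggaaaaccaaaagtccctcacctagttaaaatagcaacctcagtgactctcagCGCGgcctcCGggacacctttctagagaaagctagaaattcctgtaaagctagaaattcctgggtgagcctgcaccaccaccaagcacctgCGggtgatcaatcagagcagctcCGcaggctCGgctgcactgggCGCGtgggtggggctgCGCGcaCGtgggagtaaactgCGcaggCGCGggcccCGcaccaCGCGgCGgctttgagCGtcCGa

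The 7 windows differed in how many CGs they hold and in how many reads lay on them. Dennd1b, which encodes an exchange factor for a Rab GTPase, had 36 CGs, of which 35 were listed, with a median of 3 reads (lowest 1, highest 8). Its 27 listed CGs before the start averaged 2.74 reads and the 8 after it 7.00. The window of Pdf, the mitochondrial peptide deformylase, ran the other way: 21 CGs before the start averaged 3.19 reads and the 7 after it had 1 read each. Mrps15, a protein of the small mitochondrial ribosomal subunit, had 15 CGs, of which 13 were listed, with means of 3.14 reads before and 8.67 after the start. Most of the bases before its start lay outside the called region, so these means partly compare outside with inside. In the window of Mrpl17, of the large mitochondrial ribosomal subunit, 34 of 35 CGs were listed, with means of 3.71 reads before and 2.83 after the start. Psmd8, of the proteasome cap, had 15 CGs with means of 4.50 and 4.67 reads, while its whole region, which reaches farther into the gene, averaged 8.13.

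Methylated reads were absent or rare in 5 of these windows and present in the others. None of the 74 reads of Pdf, the 74 of Mrps15 or the 121 of Mrpl17 was methylated, which allows levels of up to 4.05%, 4.05% and 2.48%. Dennd1b had 4 methylated of 130 reads (3.08%, 95% Wilson interval 1.203 to 7.64) and Psmd8 had 1 of 68 (1.47%, 0.260 to 7.87). Mael, a factor of the piRNA pathway that silences transposons in germ cells, had 18 methylated reads (17.8%, 11.6 to 26.4). At Mael 6 of these lay on the first 4 CGs of the window, where all 6 reads were methylated, and the sequence from base 231 to base 263 had none. Tdrd1, a Tudor protein of the same pathway, had 6 of 88 (6.82%, 3.16 to 14.1). Neighbouring CGs share reads, so the intervals and limits here understate even the counting error.

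**Figure D1:**
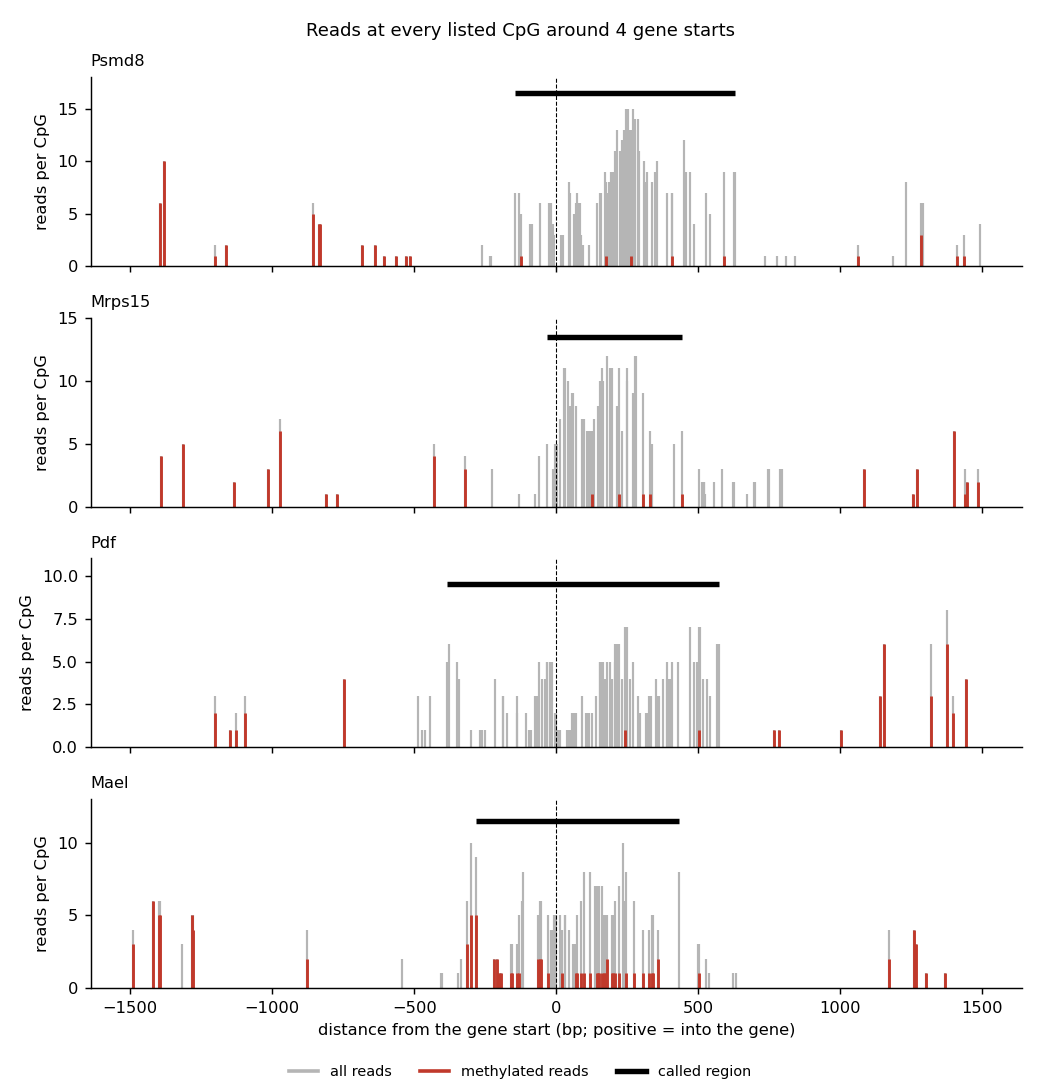
Reads at every listed CpG within 1500 bp of 4 gene starts, with all reads in gray, methylated reads in red and the called region as a black bar; the horizontal axis is the distance from the gene start in bp and the vertical axis is reads per CpG. Psmd8 rises to 15 reads downstream of its start, Pdf stays at 7 reads or fewer inside its region, and at Mael methylated reads lie on both sides of the start.

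Members were short, dense and nearly free of methylation. Their length had a median of 815 bp (from 185 bp up) and they held a median of 66 listed CpGs (30 to 143), 40 of them with 5 or more reads. Density had a median of 8.77 listed CpGs per 100 bp (quartiles 7.10 and 10.9). Regions of 1000 to under 3000 bp, 7023 in number, had 6.28 and the 636 regions of 3000 bp or more had 5.05. A short region must be dense to hold 30 CpGs, so this order comes in part with the rule. All members together covered 1256.66 kb, with 0.736% of the listed autosomal CpGs.

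Pooled over the listed CpGs with no more than 19 reads, the level was 3.304% in the members (Wilson interval 3.26 to 3.35, 650806 reads). It was 3.68% in the regions of 1000 to under 3000 bp, 4.22% in those of 3000 bp or more and 73.9% over all autosomal CpGs. Single members ranged from 0% to 34.1%, with a median of 2.15% (quartiles 1.36% and 3.53%). A level under 1% was found in 231 members (14.3%), against 4.37% of the regions of 1000 to under 3000 bp. A level over 10% was found in 103 members (6.39%), against 4.88%. The members thus had more regions at both ends of the scale. A member has fewer reads than a longer region, which widens the spread of its level, and how much of the difference this makes was not tested.

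Coverage had a median of 5.85 reads per listed CpG (quartiles 5.15 and 6.67, range 3.53 to 13.1). The median was 5.39 (4.75 and 6.16) in the regions of 1000 to under 3000 bp and 5.42 (4.91 and 6.01) in those of 3000 bp or more, so the quartiles overlap. The ratio of the first 2 medians was 1.09. With gaps of at most 200 bp it was 1.01, with an interval over regions of 0.998 to 1.03 that includes 1. Regions of 1 library are not replicates, so this interval is no test. Autosomal CpGs in general, with the same limit of 19, averaged 3.27 reads. At 4 to under 6 CpGs per 100 bp the median was 6.53 in 180 members and 5.44 in 2431 regions of 1000 to under 3000 bp. At 6 to under 8 it was 5.80 in 438 members and 5.30 in 2363 such regions. At 8 to under 10 it was 5.66 in 450 members and 5.23 in 1076 such regions, and at 10 to under 12 it was 5.61 and 5.398. At 12 or more it was 6.10 in 254 members and 5.55 in 109 such regions. The members' median was thus the higher one at each density, with the widest gap among the sparsest regions and the narrowest at 10 to under 12. A short, sparse region holds few CpGs, so it enters only if a large share of them reach 5 reads. Of all listed CpGs in the members, 62.6% had 5 or more reads and formed the region, against 55.6% in the longer class.

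Among the members the shortest were the densest and the best covered. The 119 members under 500 bp had a median of 12.04 listed CpGs per 100 bp and 6.75 reads, and the 475 members of 900 bp or more had 7.73 CpGs per 100 bp and 5.67 reads. Across the 1613 members coverage had a Spearman correlation of -0.198 with length and of -0.117 with density (Pearson -0.237 and -0.0500). The points share 1 library and the threshold of 5 reads. At the limits of the rule the values ran on without a step. The 563 regions of 1000 to under 1100 bp had a median coverage of 5.57 reads and a median level of 2.51%, against 5.67 and 2.27% at 900 to under 1000 bp. Runs under 1000 bp with 27 to 29 CpGs had 5.30 reads, against 5.39 with 30 to 32.

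**Figure D2:**
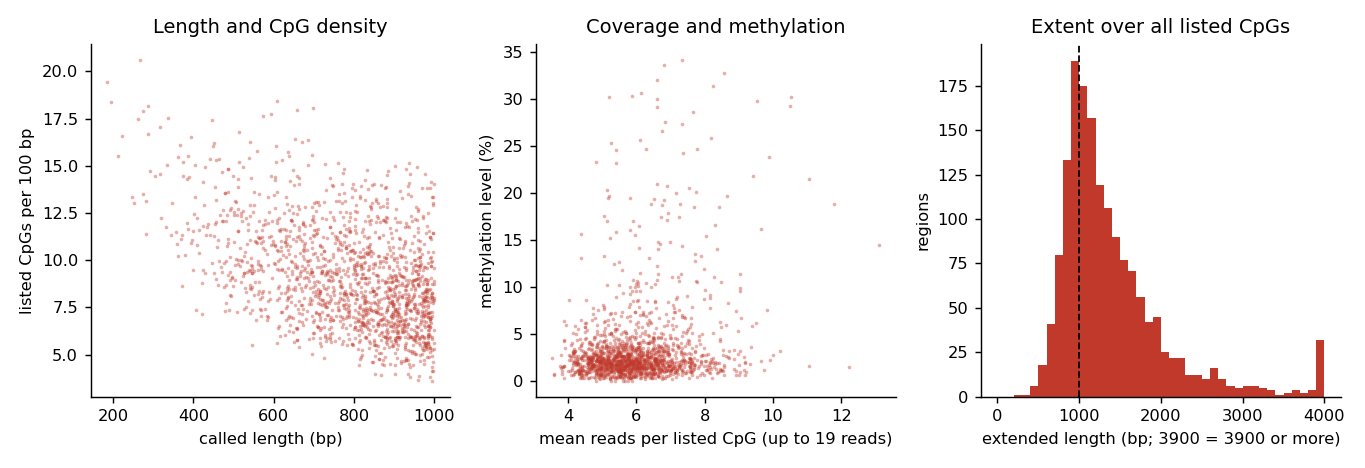
Each point of the first 2 panels is 1 of the 1613 regions: length in bp against listed CpGs per 100 bp, and mean reads per listed CpG against methylation level in percent; the third panel counts regions by extended length in bins of 100 bp, with a dashed line at 1000 bp. Density falls with length, most levels lie under 5% with a scatter up to 34.1%, and 469 regions have an extended length under 1000 bp.

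At most edges the call ended where deep CpGs ran out. Of the 3226 edges, 743 (23.03%) lay beside a CpG of 5 or more reads whose pooled level was 50% or more. The other edges were set because no CpG of 5 or more reads followed within 500 bp. With gaps of at most 200 bp the rule gave 4742 regions under 1000 bp, and with gaps of up to 1000 bp it gave 971. Of the 1613 members, 1005 (62.3%) had no CpG of 5 or more reads within 500 bp beyond either edge. In 135 (8.37%) both edges lay beside methylated CpGs. Among regions of 1000 to under 3000 bp the shares were 42.7% and 15.6%. Within 100 bp outside the edges of members the level was 12.6% (12.2 to 13.0), and it was 18.3% from there to 250 bp, 35.9% from 250 to 500 bp and 64.3% at 1001 to 2000 bp. Over 1 to 250 bp it was 15.3%. This value was 45.2% when taken from CpGs of 5 or more reads and 4.49% for regions called at a minimum of 8 reads. A run ends at a CpG of 5 or more reads that is not low or at a gap, so the 45.2% comes in part with the rule. Taken member by member, the median level was 7.14% over 1 to 250 bp and 86.7% over 1001 to 2000 bp. In the nearer band 70.1% of the 1568 members with 5 or more reads there were under 20% and 6 members were over 80%, and in the farther band 81 of 1608 were under 20% and 1051 (65.4%) over 80%. Next to the edges of the 1005 members without a methylated edge it was 5.37% over 1 to 250 bp, with a coverage of 2.29 reads.

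An extended length was therefore taken over all listed CpGs of any depth. From each edge a region was prolonged until the next 5 listed CpGs pooled to 50% or more, or until a gap above 500 bp. The median length then rose from 815 to 1203 bp (quartiles 972 and 1622). Of the 1613 members 469 (29.1%) stayed under 1000 bp, 497 (30.8%) reached 1500 bp and 66 reached 3000 bp. The name of compact islands thus held for 469 members by this measure, and the other 1144 are short only at 5 reads per CpG. The 469 had a level of 5.13% (5.02 to 5.23), a median of 8.19 CpGs per 100 bp and a median coverage of 6.08 reads. The other 1144 had 2.64%, 8.97 and 5.76 reads. Outside the edges of the 469 the level was 29.8% at 1 to 250 bp and 77.1% at 1001 to 2000 bp, against 10.2% and 59.7%.

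**Figure D3:**
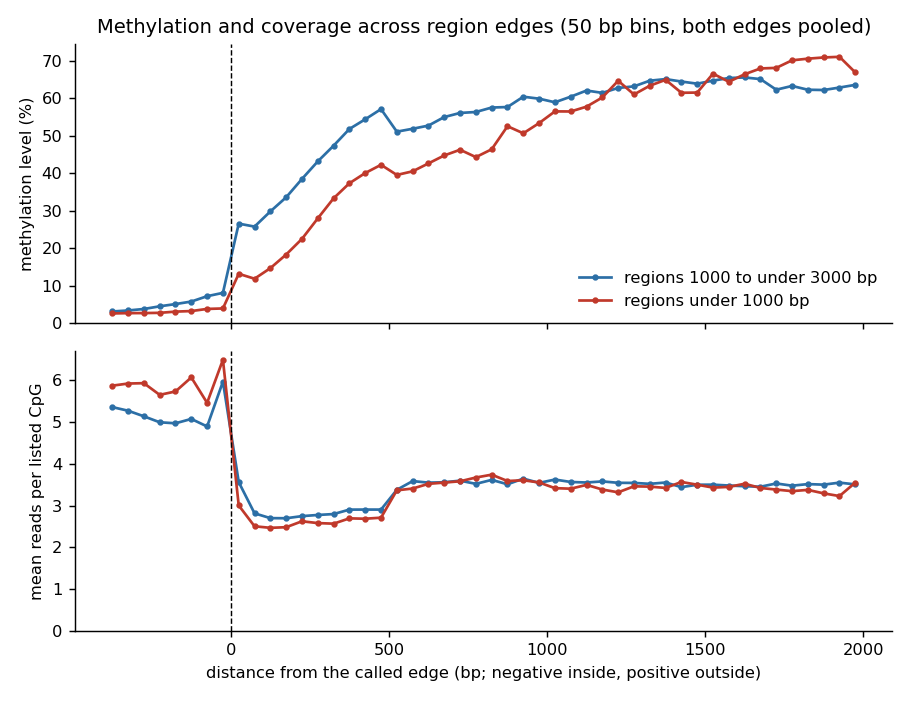
Methylation level in percent (top) and mean reads per listed CpG (bottom) in 50 bp bins against the distance from the called edge in bp, negative inside and positive outside, with both edges of all regions pooled; red stands for regions under 1000 bp and blue for regions of 1000 to under 3000 bp. Coverage falls from 6.50 reads in the last 50 bp inside the short regions to 3.004 in the first 50 bp outside and steps up again at 500 bp, which follows from the rule, while the level rises over a longer stretch, to 42.3% at 450 to 500 bp.

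Inside the members the level was lowest in the middle and coverage changed little. Within 50 bp of the middle the level was 2.66% and coverage 6.11 reads, and at 200 to under 250 bp from it 3.13% and 5.67 reads. At 400 to under 450 bp, which only the longer members reach, the level was 5.93%. Coverage of CpG pairs in 1 member, each taken as the difference from the member's mean, had a correlation of 0.771 at distances of 1 to 20 bp and -0.0608 at 41 to 60 bp. It was 0.0572 at 81 to 100 bp and -0.183 at 201 to 220 bp (160376 to 227291 pairs a bin). Near pairs share reads, and taking differences from a mean pulls the values down. In the regions of 1000 to under 3000 bp the order was the same, with 0.0237, 0.0957 and -0.111 at the last 3 distances.

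Gene starts were placed by CG spacing, and many members held one. Of 32851 RefSeq windows 15982 had 8 or more CGs, and 13375 of these (83.7%) matched 1 place in the table. The chromosome was not used for the match, and it was the RefSeq one for 13368 of them (99.9%). On the autosomes 13043 windows of 11354 genes were used, and 13023 of 13025 neighbouring pairs had the same order as in RefSeq. A start lay inside 821 of the 1613 members (50.9%), 61.8% of the regions of 1000 to under 3000 bp and 55.8% of those of 3000 bp or more. Windows with fewer CGs were not placed, so a member without a placed start may still hold a gene start. The starts in members belonged to 911 genes, 8.02% of the 11354 genes placed. Protein-coding genes made up 90.5% of the 911, 87.6% of the genes with a start in a region of 1000 to under 3000 bp and 81.8% of all placed genes.

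Members with a placed start were less methylated and less covered than those without. The 821 members with a start had a level of 2.40% (2.35 to 2.45) and a median coverage of 5.67 reads, against 4.30% (4.23 to 4.37) and 6.07 reads in the other 792. Mean coverage was 5.79 ± 1.06 and 6.24 ± 1.30 reads (SD over regions). A level over 10% was found in 11 of the former and 92 of the latter. The next low region of any size was at a median of 19828 bp from members with a start and 10985.5 bp from those without. Of the 404 members with the lowest coverage 58.2% held a placed start, and of the 401 with the highest 38.7%.

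The gene start lay toward the upstream end of the members. They reached a median of 280 bp upstream of the start (quartiles 160 and 444) and 510 bp downstream (366 and 652). The region extended farther into the gene than ahead of it at 712 of 1004 starts (70.9%). In regions of 1000 to under 3000 bp the medians were 711 and 885 bp, and 61.1% of the starts had more of the region downstream. Members held a pair of divergent genes, on opposite strands and pointing away from each other, in 62 of 821 cases (7.55%), against 16.3% of the regions of 1000 to under 3000 bp with a start. A longer region has more room for a second start.

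Coverage around the start was uneven. In the 665 members with 1 placed window it was 4.47 reads per listed CpG at 300 to 201 bp upstream, 5.02 in the 100 bp before the start, 5.83 in the first 100 bp of the gene and 6.14 at 100 to 199 bp, and it fell to 3.24 at 700 to 799 bp. The level stayed between 1.84% and 2.37% from 200 bp upstream to 399 bp downstream. It was 11.4% at 500 to 401 bp upstream and 6.83% at 600 to 699 bp downstream. The first 300 bp of the gene had higher coverage than the 300 bp before the start in 463 of 660 members with enough CpGs (70.2%), with medians of 5.83 and 4.51 reads. The shares were 66.6% in regions of 1000 to under 3000 bp and 70.6% in those of 3000 bp or more, so this side difference was seen in all 3 classes. The bins by distance took listed CpGs inside and outside the regions. Members reached a median of only 280 bp upstream and 510 bp downstream, so the outer bins partly compare outside with inside. How much this adds to the side difference in members was not tested.

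**Figure D4:**
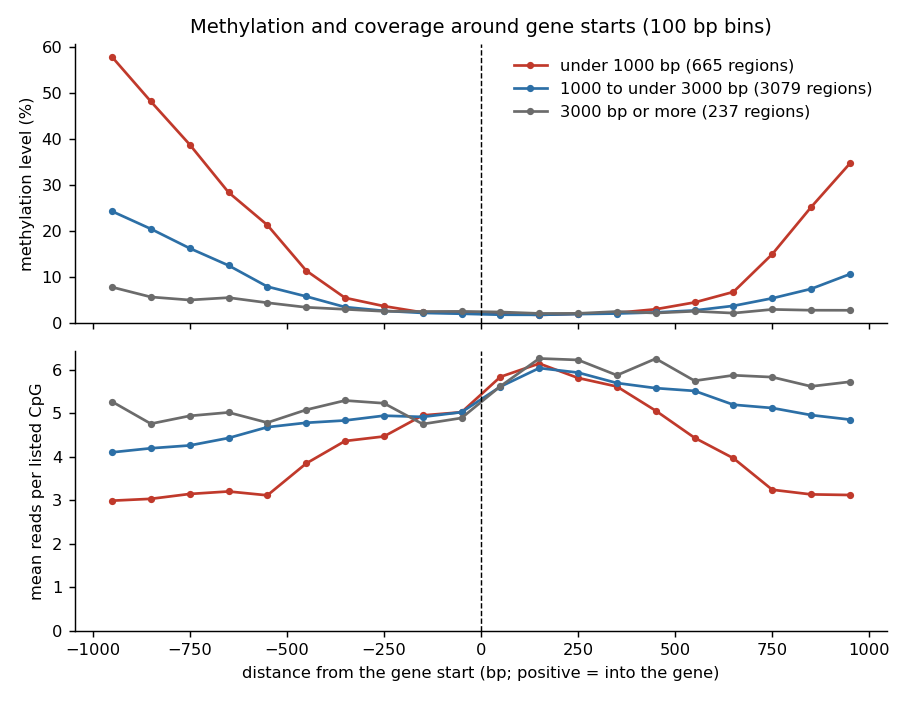
Methylation level in percent (top) and mean reads per listed CpG (bottom) in 100 bp bins against the distance from the gene start in bp, positive into the gene, for regions with 1 placed window in 3 length classes. Coverage is highest at 100 to 199 bp into the gene in each class, at 6.04 to 6.26 reads, and the level of the regions under 1000 bp rises on both sides, to 57.8% at 1000 to 901 bp upstream.

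The DNA at these starts was as rich in C and G as at the starts in longer regions. The 1004 windows in members had a median of 65.7% G and C, 27 CGs and an observed over expected CG ratio of 0.877 (the count of CGs over that expected from the C and G content). Windows in regions of 1000 to under 3000 bp had 65.7%, 27 and 0.855, those in regions of 3000 bp or more 63.7%, 22 and 0.775, all 13043 placed windows 62.3%, 22 and 0.777, and the whole set of RefSeq windows 52.7%, 7 and 0.384. Of the CGs in the members' windows 97.0% were listed, so few had no read, although a window needed 80% to be placed. The GC box GGGCGG, bound by Sp factors, was found on either strand in 74.8% of the members' windows, in 75.2% in the regions of 1000 to under 3000 bp, in 65.7% of all placed windows and in 35.7% of all 32851 windows. Only windows with 8 or more CGs could be placed, so the placed windows are the like background, and the shares below follow the same order of 4. The ETS core CCGGAAG was in 20.1%, 18.2%, 17.0% and 8.86%, the NRF1 sequence GCATGCGC in 7.07%, 5.36%, 5.34% and 2.71%, and the cAMP response element TGACGTCA in 4.18%, 3.31%, 3.29% and 1.79%. CCAAT was in 29.5%, 33.0%, 34.7% and 37.4%, GATGGCG, part of the YY1 site, in 7.27%, 6.87%, 6.45% and 3.49%, the E-box CACGTG in 10.9%, 10.6%, 10.6% and 7.15%, and TATAAA in 3.39%, 4.64%, 5.80% and 13.6%. All but CCAAT and TATAAA contain CG and follow the number of CGs in a window, and the motifs may overlap. In regions of 3000 bp or more the ETS core was in 5.28% and TATAAA in 10.2%.

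Gene lists, written with earlier results of these data known, were counted at the members against the 8.02% of all placed genes. Genes with starts in several classes count in each. Mitochondrial ribosomal proteins had 7 of 55 placed genes there (12.7%), factors of DNA replication 4 of 30 (13.3%), translation factors 5 of 46 (10.9%), the respiratory chain 5 of 61 (8.20%), proteasome subunits 2 of 26 (7.69%), splicing factors 4 of 53 (7.55%) and zinc finger proteins named Zfp 16 of 202 (7.92%). Cytosolic ribosomal proteins had 1 of 49 (2.04%) and aminoacyl tRNA synthetases 1 of 19 (5.26%). These shares differ from the background by a few genes each. Of 90 developmental transcription factors, such as the Hox, Pax and Sox families, none had a start in a member, and 42 (46.7%) had one in a region of 3000 bp or more, where 435 of all 11354 placed genes (3.83%) had one. None of 12 spermatid genes or 21 replication-dependent histone genes had a start in a member, and the Wnt, Fgf and Bmp ligands had 1 of 29 (3.45%).

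**Figure D5:**
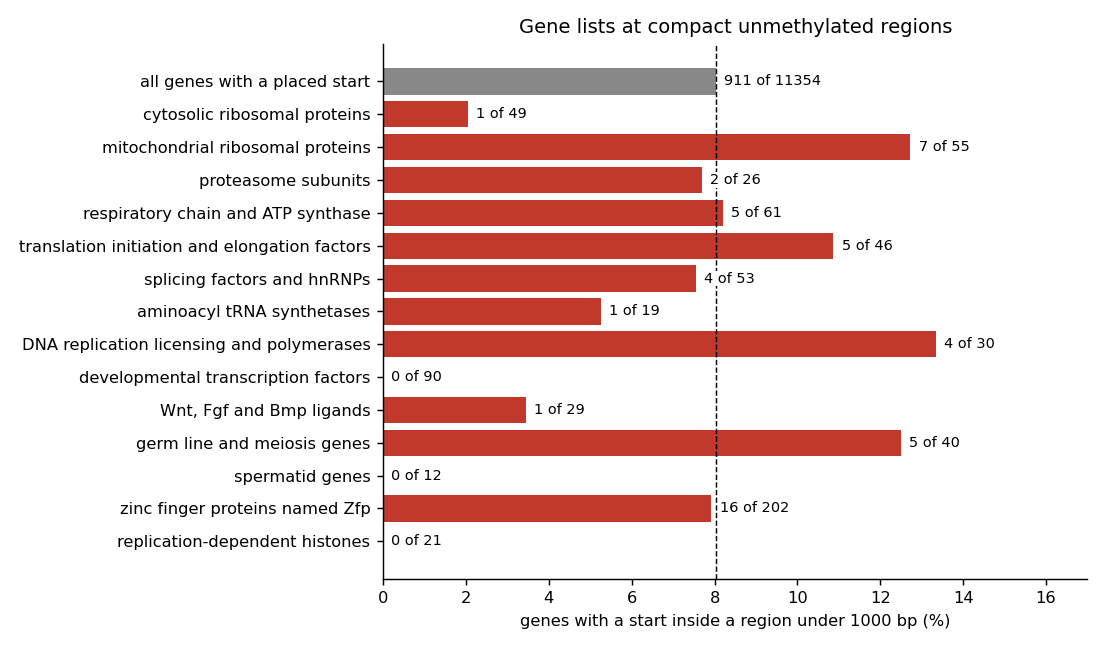
Share of the placed genes of each list, in percent, with a start inside a region under 1000 bp, with the number of genes beside each bar and a dashed line at the 8.02% of all placed genes. The lists at 12.5% to 13.3% rest on 4 to 7 genes each, and 3 lists are at 0.

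Genes of mitochondrial translation spanned much of the range of coverage. The 7 regions had between 4.15 and 8.15 reads per listed CpG and levels between 0.333% and 2.20%. The region of Mrps15 (mm9 chr4:125724139-125724615) was 477 bp long and had 8.15 ± 2.41 reads (SD over 41 CpGs). It began 33 bp upstream of the start. The region of Mrpl17 (chr7:112958917-112959850) had 4.15 ± 2.46 reads over 82 CpGs. Both had few methylated reads, with levels of 1.497% (0.641 to 3.46) and 0.588% (0.161 to 2.12).

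The genes with the highest and the lowest coverage in 4 other lists had regions with levels between 0.707% and 2.89%. Psmd8 (chr7:29965062-29965836) had 8.13 ± 3.39 reads over 64 CpGs with a level of 0.962%, and Psmd11 (chr11:80241876-80242853), another proteasome cap subunit, 4.60 ± 2.90 reads over 82 CpGs and 1.86%. Srsf11 (chr3:157698970-157699897), a splicing regulator, had 8.45 ± 4.08 reads, and Sf3b3 (chr8:113370316-113371190), of the U2 particle, 4.88 ± 1.99. Ndufv1 (chr19:4012493-4013146), a subunit of respiratory complex I, had 6.92 ± 2.59 reads, and Atp5g3 (chr2:73748707-73749561), of the ATP synthase, 3.83 ± 2.08. Eef1a2 (chr2:180891353-180891752), an elongation factor used mainly in neurons and muscle, had 7.29 ± 3.29 reads and the level of 2.89%, and Eif4b (chr15:101904032-101904990), an initiation factor, 4.55 ± 2.90. The SDs over CpGs of 1 region are about as wide as the differences between regions. Ndufaf8, an assembly factor, Eef2kmt, a methyltransferase, and Rps27l, a paralog of a ribosomal protein, entered their lists by name.

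Among factors of DNA replication, Pole3, an accessory subunit of DNA polymerase epsilon, had no methylated read among 344 (chr4:62185750-62186628), which allows a level of up to 0.872%. Rfc1, the large subunit of the clamp loader, had the highest coverage of this list, at 6.18 ± 2.39 reads over 74 CpGs (chr5:65726294-65727194). Mcm9, a helicase of the MCM family, had the lowest, at 4.71 ± 2.36 over 93 CpGs (chr10:53349237-53349947). Of the zinc finger genes Zfp804a had the highest coverage, at 8.86 ± 5.79 reads over 64 CpGs (chr2:81893406-81893992), and Zfp618 the lowest, at 4.21 ± 4.13 over 80 CpGs (chr4:62626437-62627239). The only gene of the ligand list was Fgf12, which encodes a factor that stays inside the cell, with 2 members at 6.96 and 6.70 reads (chr16:28446127-28447052 and chr16:28564405-28565223). Rps27l had 4.89 ± 2.49 reads (chr9:66793560-66794453) and Mars1, the methionyl tRNA synthetase, 4.90 ± 2.69 (chr10:126748397-126749368).

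Germ line genes had 5 of 40 placed genes at members (12.5%), against 8.02% of all placed genes, a difference of a few genes. Of these members 3 were far above the median level of all members, 2.15%. A level over 10% was found in 11 of the 821 members with a placed start (1.34%). The region of Mael (chr1:168168443-168169156) had 48 of 282 reads methylated, a level of 17.0% (13.1 to 21.8). Tdrd1 (chr19:56900668-56901011) had 27 of 214, 12.6% (8.82 to 17.7), and Dmc1, the meiotic recombinase (chr15:79435101-79436076), 29 of 314, 9.24% (6.51 to 12.9). Tdrd5, another Tudor protein of the piRNA pathway (chr1:158233364-158234022), had 1.48% (0.719 to 3.02). Tex2, which the list took in by its name, had 2.22% (chr11:106473517-106474444). Coverage of the 5 regions lay between 5.13 reads at Mael and 6.58 at Tex2, within the range of the members. The highest level among the members of the other lists was 5.25%, at Zfp786 (chr6:47780109-47781009).

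Members with a level over 10% had their own profile. The 103 had a median coverage of 6.73 reads, 7.05 CpGs per 100 bp and an extended length of 898 bp, against 5.80, 8.88 and 1230 bp in the other 1510. Both edges lay beside methylated CpGs in 62 of them (60.2%), against 4.83% of the others. Of their CpGs with 5 to 19 reads 41.7% had levels of 20% to 80% and 0.0251% had levels over 80%. The rule ends a run at deep CpGs of high level, so it nearly bars the latter from any member. In the 724 members under 2%, 91.3% of such CpGs had no methylated read.

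Placed starts lay in 11 of the 103 (10.7%), against 53.6% of the other 1510 members. All 11 are named here although chosen after their values were seen. Gm14329 had the highest level of the 11, 30.2% (25.9 to 34.8), and Ccdc194 had 24.7%. Mcts2, an imprinted retrogene expressed from the paternal copy, had 21.8% (18.5 to 25.5) with 9.42 ± 4.04 reads over 57 CpGs (chr2:152512522-152513368). The source of the methylated reads at Mcts2 was not tested. Gnmt, glycine N-methyltransferase, had 20.1%, and Krtcap3 had 17.5%. Mael and Tdrd1 followed, and Cnksr1 had 11.8%, Gm46558 10.49%, Insl3, a hormone of Leydig cells, 10.47%, and Klhdc9 10.1%. The 5 members with the highest levels of all had no placed start and lay between 31.3% and 34.1%. The first was chr8:72975754-72976214 with 34.1% (28.9 to 39.7), the next chr11:60289940-60290566 with 33.6% and chr9:121891498-121892387 with 32.7%. The last 2 were chr8:37209408-37210269 with 31.96% and chr15:98087013-98087914 with 31.3%. In the order given, the next low region lay at 27, 220, 35, 40988 and 27613 bp. Both edges lay beside methylated CpGs in all of the 5 but the last 2.

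The ends of the coverage range are given next. None of the 5 best covered members had a placed start, against 50.9% of all members. One of them, chr19:11166807-11166991, was also the shortest of all, at 185 bp with 36 CpGs (19.5 per 100 bp). It had 12.2 ± 4.37 reads over 27 CpGs, 9 more above 19 reads, a level of 1.52% and an extended length of 916 bp. The best covered was chr14:66349363-66349978 with 13.1 ± 3.66 reads over 36 CpGs, and the others were chr13:53206539-53206944 with 11.8 ± 5.11, chr17:37333770-37334663 with 11.1 ± 4.08 and chr7:20396041-20397002 with 11.1 ± 4.36. Their levels ran from 1.52% to 21.5%, and 3 of the 5 were over 10%, against 6.39% of all members.

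Of the 5 least covered members 3 held a placed gene start, near the 50.9% of all members. The region of Dennd1b (chr1:140859847-140860684) had 3.53 ± 3.15 reads over 92 CpGs, with 9 CpGs above 19 reads left out and 5.26 reads when these are counted. That of Pdf (chr8:109571940-109572897) had 3.57 ± 1.74 reads over 93 CpGs and no CpG above 7 reads. C2cd5 (chr6:143047979-143048945) had 3.78 ± 2.33 reads over 95 CpGs. The other 2, chr9:40608654-40609580 and chr13:46058767-46059690, had 3.59 and 3.77 reads. All 5 had levels of 2.46% or less and lay in dense DNA, at 8.63 to 12.1 CpGs per 100 bp.

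The densest member was chr8:87163234-87163500, with 20.6 CpGs per 100 bp. It had 6.22 ± 3.23 reads over 55 CpGs with a level of 1.46%. Together with chr19:11166807-11166991, 2 regions on chromosome 18 and chr6:100236843-100237128 it made up the 5 densest, whose levels ran from 0.357% to 1.95%. The 5 sparsest, at 3.62 to 3.85 CpGs per 100 bp, had levels from 11.8% to 29.3%. They were chr10:114889278-114890272, chr19:57571376-57572334, chr6:52156229-52157168, chr4:133793898-133794886 at Cnksr1 and chr7:20396041-20397002. Level thus fell with density, with a Spearman correlation of -0.298 over the 1613 members. The shortest members after the first measured 196 bp on chromosome 18, 213 bp (chr11:101825271-101825483), 223 bp (chr5:115956693-115956915) and 247 bp (chr4:145427010-145427256). Of these 5 only the last kept its length when extended, and it had a level of 16.2%.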

How the data were processed

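Methylation was measured in 1 bisulfite library of nucleosome-associated sperm DNA. The deposited table gives raw counts of all and of methylated reads per CpG, per the file headers, with no normalization by the authors. Bowtie and mm9 are named per the submitters' processing notes, with trimming, strand merging and duplicate removal not given in the sources used here, nor the conversion rate. The library held 60995624 CpG reads over 15544856 listed CpGs, with a median of 3 reads on autosomes, where 23.5% of CpGs had 5 or more. The lowest read number in the table is 1. Members and lists were chosen with earlier results of these data known. Shorter runs of 4 or more low CpGs were kept as neighbours. A RefSeq window (GRCm38.p6, 250 bases before to 50 after a start) was placed where at least 80% of its CGs, 8 or more, were listed and at most 10% of listed positions were no CG, if 1 best place existed. The regions named are the 5 highest and lowest in coverage and density, the 5 shortest, the 5 highest in level and the 5 most isolated, and the list genes are those with the highest and lowest coverage. Sequences were planned for the first 2 of 4 rankings; of these only Dennd1b and Pdf had a placed window, and sequence of chromosome 18 is not shown. Intervals of levels are 95% Wilson intervals, and a count of 0 allows up to 3 reads. Neighbouring CpGs share reads, so these intervals are too narrow. Intervals of medians and of their ratio are over regions of 1 library, which are not replicates. Python 3.11.15, numpy 2.4.6, pandas 2.3.3, scipy 1.17.1 and matplotlib 3.10.9 were used. The calls were also tried on simulated data, with low levels planted over runs already called on 1 chromosome. This does not test how the edges depend on depth.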

Additional observations from a re-analysis of the deposited data

Results flagged for a closer look

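Chromosome X was outside the rule. It held 10 regions under 1000 bp of 36 CpG-rich ones, with a median coverage of 4.96 reads (range 4.05 to 6.75) and a level of 2.39% (Wilson interval 1.93 to 2.95). They came to light because the description above covers the autosomes alone.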

How the results depend on the processing

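No paired analysis was possible because the data come from 1 library. The settings tried were minimums of 4 and 8 reads, a level under 25%, gaps up to 200 and 1000 bp, 20 and 40 CpGs, lengths under 750 and 1500 bp, coverage with no read limit and with a limit of 12, and levels from CpGs of 5 reads or more. Keeping only members with an extended length under 1000 bp, or with methylated CpGs at both edges, was chosen after seeing the data. Of 98 values, 20 lay inside the main value's interval (for the number, by less than 1.5 times) and 78 moved. The cause of these moves was not tested. Neighbouring CpGs share reads, so the intervals of levels are too narrow, and small changes of a level count as moved. The ratio was above 1 at all 14 settings, but with 200 bp gaps its interval over regions (0.998 to 1.03) includes 1. Taking levels from CpGs of 5 reads or more leaves the number, density, coverage and ratio unchanged by design. The settings of the read limit likewise leave the number and density unchanged. Some of the 20 values, and the ratio at the former setting, could therefore not move. For the extended length and the methylated edges only the members were filtered. The regions they were set against were not, so these ratios compare unlike sets. Depth limits the edges, since 23.5% of the CpGs have 5 or more reads. The number of regions, 1613, became 981 (8 reads), 2522 (25% level), 4742 (200 bp gaps), 971 (1000 bp gaps), 3272 (20 CpGs), 810 (40 CpGs), 608 (750 bp length), 4530 (1500 bp length), 469 (extended length) and 135 (methylated edges). Median coverage, 5.85, became 5.39 (4 reads), 7.38 (8 reads), 6.15 (200 bp gaps), 5.54 (20 CpGs), 6.10 (40 CpGs), 6.10 (750 bp length), 5.59 (1500 bp length), 5.53 (12-read limit), 6.08 (extended length) and 6.43 (methylated edges). Median density, 8.77, became 7.64 (4 reads), 12.3 (8 reads), 9.17 (25% level), 9.72 (200 bp gaps), 8.38 (1000 bp gaps), 7.56 (20 CpGs), 9.78 (40 CpGs), 9.98 (750 bp length), 7.40 (1500 bp length), 8.19 (extended length) and 7.39 (methylated edges). The level inside, 3.304%, became 4.33% (4 reads), 2.42% (8 reads), 2.26% (25% level), 2.63% (200 bp gaps), 3.95% (1000 bp gaps), 4.41% (20 CpGs), 2.85% (40 CpGs), 3.41% (750 bp length), 3.39% (1500 bp length), 3.53% (no read limit), 3.58% (CpGs of 5 reads), 5.13% (extended length) and 11.02% (methylated edges). The ratio of median coverage to regions from the upper length to under 3000 bp, 1.09, became 1.06 (4 reads), 1.11 (8 reads), 1.01 (200 bp gaps), 1.05 (20 CpGs), 1.11 (40 CpGs), 1.12 (750 bp length), 1.05 (1500 bp length), 1.13 (extended length) and 1.19 (methylated edges). The level 1 to 250 bp outside, 15.3%, became 27.3% (4 reads), 4.49% (8 reads), 11.5% (25% level), 6.99% (200 bp gaps), 20.4% (1000 bp gaps), 18.6% (20 CpGs), 13.7% (40 CpGs), 13.2% (750 bp length), 20.9% (1500 bp length), 45.2% (CpGs of 5 reads), 29.8% (extended length) and 39.9% (methylated edges). The level 1001 to 2000 bp outside, 64.3%, became 68.2% (4 reads), 54.9% (8 reads), 45.9% (200 bp gaps), 79.1% (1000 bp gaps), 62.5% (20 CpGs), 68.3% (40 CpGs), 63.8% (750 bp length), 66.9% (1500 bp length), 63.9% (no read limit), 65.1% (12-read limit), 57.8% (CpGs of 5 reads), 77.1% (extended length) and 76.9% (methylated edges).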

Other observations

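The members were found on every autosome. They made up between 13.2% of the CpG-rich regions on chromosome 18 and 20.8% on chromosome 6, with 39 members on the former and 145 on chromosome 11, which had the most per Mb (1.22). Chromosome 3 had the fewest per Mb (0.409). The median coverage by chromosome was 5.88 ± 0.14 reads (SD over 19 autosomes, range 5.66 to 6.15), and the level ran from 2.46% on chromosome 16 to 4.15% on chromosome 8.

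Members lay about as far from other low regions as regions of 1000 to under 3000 bp did. The next low region of any size lay at a median of 15515 bp (quartiles 3726 and 36279), against 16479 bp for regions of 1000 to under 3000 bp and 3804.5 bp for those of 3000 bp or more. It was within 2000 bp for 320 members (19.8%) and beyond 50000 bp for 285 (17.7%). The most isolated was chr3:16082948-16083829, at 1194890 bp from the next, with 6.08 ± 3.79 reads over 113 CpGs and a level of 1.601%. The next were chr8:30329833-30330317 (5.06 reads, 4.19%), chr19:33465981-33466759 at Gm29998 (6.60 reads, 2.42%), chr15:65618575-65619364 (5.82 reads, 0.755%) and chr10:112365497-112366251 at Atxn7l3b (5.72 reads, 0.971%).

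CpGs above 19 reads were left out of coverage. They numbered 1027 in the members, 0.923% of their listed CpGs, against 0.0815% of all autosomal ones, and 82 members had 5 or more of them.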
